A study of Homo sapiens with 15 samples.

Results

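The set described here is made of 60 long noncoding RNAs (lncRNAs, transcripts that are not known to be translated) whose levels in H1 cells were higher in every library of days 0 and 4 than in any library of days 9, 11 and 20. The members were chosen by their own measured values. Counts were scaled by each library's total to CPM, the share of a library's reads that fell on a gene, and genes that GENCODE v44 classes as lncRNA, other than H19 and MEG3, were kept if their mean over the 6 libraries of days 0 and 4 reached 1 CPM. The 1569 lncRNAs past this floor were ranked by the ratio of their lowest CPM on days 0 and 4 to their highest CPM on days 9, 11 and 20, after 1 had been added to each, and the top 60 were taken. The deposited table lists 12620 lncRNAs among 48777 genes. The step from day 4 to day 9 was therefore fixed by the choice, and it is described below without a test.

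Bulk RNA came from the human embryonic stem cell line H1, sampled during a laminin-based cardiac differentiation on days 0, 4, 9, 11 and 20. Each day had 3 libraries that the labels call biological replicates. Day 0 cells were undifferentiated and grown in Nutristem medium, and the cells of the other days carry the label differentiated. All 15 libraries are labelled as grown on LN-521 with LN-221, although the deposited sample table gives LN-521 alone for day 0. The protocol used CHIR99021, an activator of WNT signalling, then IWP2, a WNT inhibitor, and the label texts do not place CHIR99021 on the same day relative to day 4. Only 1 cell line was used, and RNA came from whole wells, so fewer cells of a type and less RNA per cell cannot be told apart.

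Depth ranged from 11990302 to 33469703 counts per library, the median being 22867831. Day 20 replicate 2 stood apart from the other libraries: its RNA integrity number was 6.1, and it listed counts for 48230 genes against at most 39551 in any other library. Results that rest on it are given with and without it. The uniquely mapped share of reads was 35% in day 0 replicate 3 and 46% in day 9 replicate 1. In the other libraries it ranged from 57% to 86%. Day 9 replicate 1 was the highest later library for 11 members. The part of the mapped share in the levels below was not tested. Summed over 8 stem cell markers, TPM (a level that also accounts for gene length) ranged from 5358 to 8477 on day 0 and from 6126 to 7180 on day 4, then from 1913 to 2375 on day 9, from 949 to 1355 on day 11 and from 83.7 to 117 on day 20. LIN28A made up most of the sums of days 9 and 11, at 1464 to 1951 TPM and 838 to 1219 TPM. POU5F1 was at 931 TPM or more on days 0 and 4 and at 61.4 to 115 TPM on day 9. The 8 cardiomyocyte markers summed to at most 28.8 TPM on days 0 and 4 and to between 3723 and 20988 TPM on day 11. Endoderm markers were low on days 0 and 4, at most 12.7 TPM over 6 genes, and reached between 399 and 1070 TPM on day 9. Neural markers stayed at or below 0.704 TPM over 3 genes outside day 20. Markers of mesoderm and cardiac progenitors summed to between 118 and 318 TPM on day 4 and to between 1411 and 2240 TPM on day 9. The part of each cell type in the levels below was not tested.

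Pluripotent cells are held by a circuit of transcription factors around POU5F1, SOX2 and NANOG, and they transcribe many lncRNAs that are quiet in most adult tissues. A well-known group begins inside copies of LTR7, the terminal repeat of the endogenous retrovirus HERVH, which serves as a promoter in human pluripotent cells. ESRG, used as a marker of such cells, and LINC-ROR, named as a regulator of reprogramming, are known to start there. Other lncRNAs are kept as hosts of small RNAs, such as the transcript that carries the miR-302 microRNAs of stem cells.

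The starts of the highest-ranked members held much the same letters. Windows from 250 bases before to 50 bases after the annotated start were compared between all lncRNAs past the floor, and 9 members shared at least 100 aligned bases at 80% identity or more with the window of ESRG or of LNCPRESS2. Places in the genome are those of hg38.

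In the best local alignment with the 300 bases of ESRG, ENSG00000254339 had 282 identical bases, ENSG00000258649 had 279, ENSG00000254277 had 270, ENSG00000280511 had 252 and LINC00678 had 241. LNCPRESS2 and ENSG00000274090 formed a pair of their own with 266 identical bases, and LNCPRESS2 shared only 67 with ESRG. ENSG00000260362 lay between these groups, with 149 bases identical to ESRG and 133 to LNCPRESS2. At these gene starts the 9 windows therefore fell into a group of 6, a pair and an intermediate. This grouping depends on where the annotated gene start lies. At another of their transcript starts, ENSG00000254339, LINC00678 and ENSG00000254277 matched LNCPRESS2 over 165, 132 and 167 bases. The identities there were 92.1%, 87.1% and 88.6%.

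**Figure D1:**
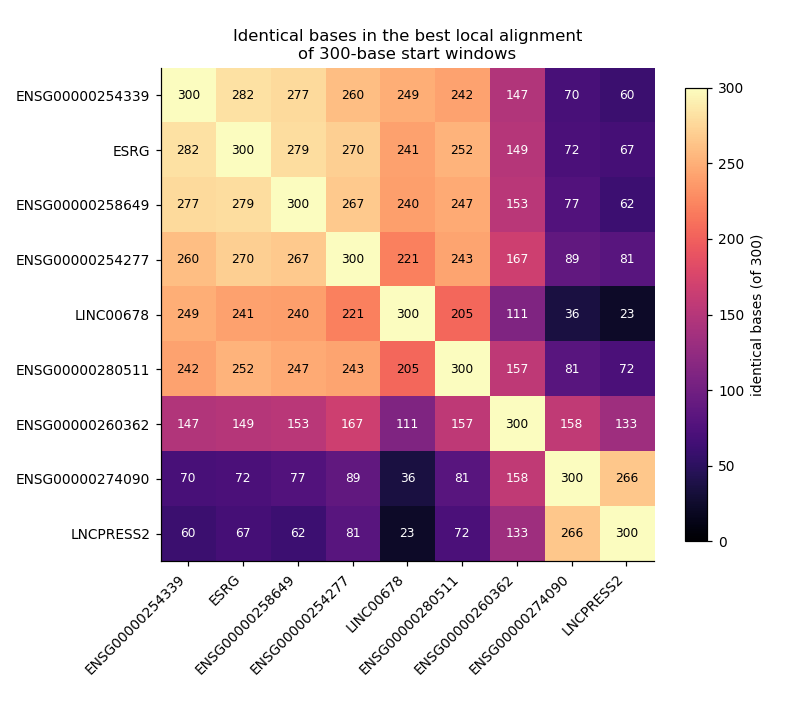
Identical bases between the 300-base start windows of the 9 members that share letters with ESRG or LNCPRESS2, as a 9 by 9 grid coloured and labelled by the number of identical bases in the best local alignment. The 6 windows at the upper left share between 205 and 282 bases with each other, and LNCPRESS2 and ENSG00000274090 at the lower right share 266.

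The letters of ESRG stood at the gene start of 46 lncRNAs in GENCODE v44, of which 24 were in the deposited table and 13 passed the floor. Of those 13, 7 were members (53.8%). They made up 11.7% of the members, while the 13 made up 0.829% of all lncRNAs past the floor, and they included the 4 highest ranks. ESRG, the query, was picked from the members (rank 4) and is itself counted in the 46, the 13 and the 7. The 13 also contain the 7 members. Sharing of start letters with any other lncRNA past the floor was seen for 17 members (28.3%) and for 170 of the 1509 other lncRNAs (11.3%). No test was made of these shares.

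These 9 members together held 30.6% of the members' summed CPM on those days. ENSG00000254339, an unnamed gene at chr8:114282037-114321110 that lies apart from coding genes, ranked highest. It was measured at 628, 404 and 619 CPM on day 0 and at 334, 336 and 796 CPM on day 4. Its day 9 libraries held 1.66, 0.618 and 1.05 CPM, and those of day 11 held 0.226, 0.399 and 0.323 CPM. On day 20 the values were 0.223, 3.89 and 0.490 CPM. With 1 CPM added to both, its lowest library of days 0 and 4 was 68.5 times its highest later library. Its mean of 1634 TPM over days 0 and 4 was also the largest level per length among the members.

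ESRG (ENSG00000265992) overlaps CACNA2D3 on the opposite strand at chr3:54632122-54639857. It stood at 364, 195 and 454 CPM on day 0 and 398, 286 and 371 CPM on day 4. By day 9 it was at 5.29, 2.38 and 4.29 CPM, and by day 11 at 0.770, 0.698 and 0.485 CPM. Day 20 gave 0.670, 9.25 and 1.41 CPM, so replicate 2 alone of that day exceeded every library of days 9 and 11. LINC00678 (chr11:27617626-27634627) and ENSG00000254277 (chr8:71675300-71756667) took the same course. LINC00678 was at 105, 104 and 135 CPM on day 4 and at 1.91, 1.38 and 2.98 CPM on day 9. ENSG00000254277 was at 126, 100.3 and 139 CPM on day 4 and 3.63, 1.76 and 1.71 CPM on day 9.

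LNCPRESS2 (chr4:92268767-92277075), named as a p53-regulated transcript of embryonic stem cells, shared few letters with ESRG in the gene-start windows. It was at 39.7, 66.7 and 44.3 CPM on day 0 and 24.1, 38.2 and 47.0 CPM on day 4. It was then at 1.05, 0.665 and 0.945 CPM on day 9, 0.0906, 0.0498 and 0.0808 CPM on day 11 and 0.0372, 1.79 and 0 CPM on day 20. The partner in its letters, ENSG00000274090 (chr13:55535697-55583524), stood at 19.1, 17.1 and 31.2 CPM on day 4 and 1.48, 0.665 and 0.509 CPM on day 9. Every later library of both lay below their day 4 libraries. On day 4, ENSG00000260362 had 11.6, 9.05 and 18.4 CPM, ENSG00000280511 11.6, 9.45 and 12.4 CPM and ENSG00000258649 4.61, 7.61 and 9.28 CPM.

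Of the day 4 level, the 9 members kept between 0.157% and 3.93% on day 9, with a median of 1.53%, and between 0% and 0.268% on day 11, with a median of 0.203%. The medians of the other 51 members were 10.3% and 2.95%. On day 20 the 9 kept between 0.314% and 12.3%, and at most 1.14% when replicate 2 was left out. For 7 of the 9, every day 11 library lay below every day 9 library, where 8.80% of 44235 genes were lower without overlap. All 9 stayed in the set under each of 6 other settings of the selection.

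**Figure D2:**
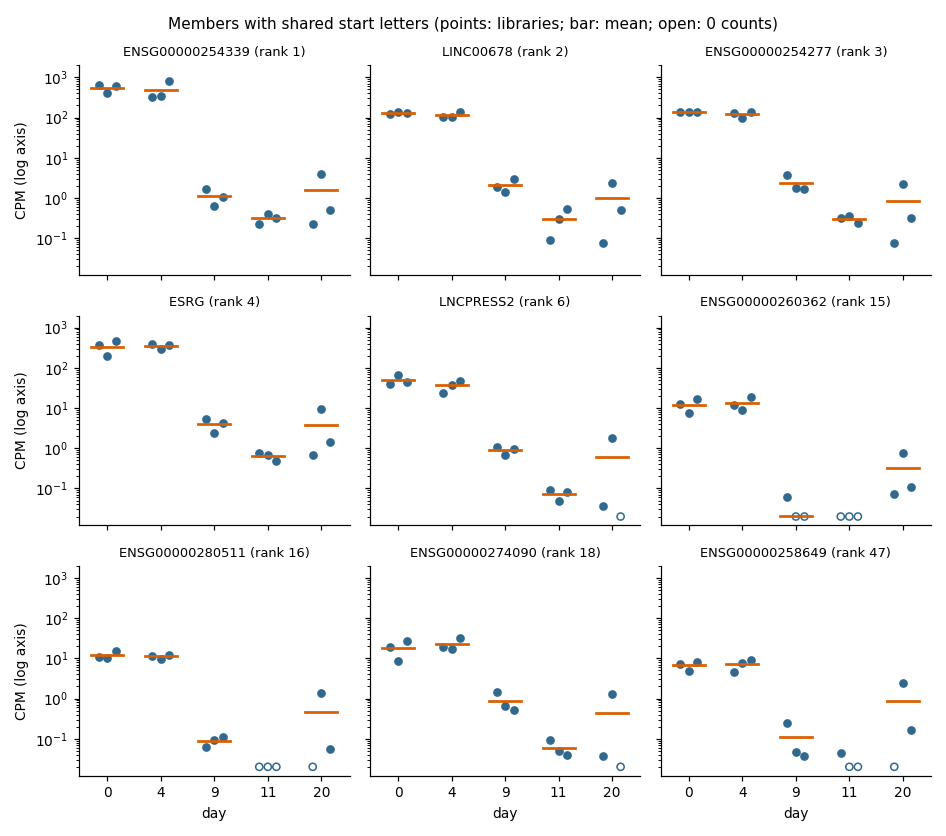
CPM of the 9 members with shared start letters in each library, on a log axis, by day; filled points are libraries, open points are libraries with 0 counts and bars are means of the 3 libraries. All 9 drop between day 4 and day 9, the step the selection used, and the day 20 library that lies above the others is replicate 2.

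Shared letters did not go with membership alone. Of the 19 lncRNAs past the floor with ESRG or LNCPRESS2 letters at any of their starts, 10 were not members. Of those 10, 8 had a lower mean on day 9 than on day 4, but only 3 were under 25% of it. LINC00665, counted among the 8, had means of 50.3 CPM on day 4 and 47.0 CPM on day 9. The share with a lower mean over all lncRNAs past the floor is not reported here, so nothing was read from the 8. LINC-ROR ranked only 930, with 2.54, 20.6 and 8.26 CPM on day 0 and 1.07, 5.95 and 8.78 CPM on day 4: its lowest library on those days held 1.07 CPM. Without day 20 replicate 2 it ranked 317, and by means in place of extremes it ranked 41, inside the top 60. LINC00458, another lncRNA known from pluripotent cells, ranked 902, without that library 1237 and by means 49. Its day 4 libraries held 14.7, 24.4 and 44.7 CPM and its day 9 libraries 35.4, 11.0 and 7.85 CPM, so replicate 1 of day 9 lay above all but the highest day 4 library. LINC01356, with these letters at a transcript start other than its gene start, was at a mean of 70.7 CPM on day 9 and ranked 1556.

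The octamer ATGCAAAT, which POU factors bind, was searched on both strands of the same windows. It was present in 2 members (3.33%), MIR302CHG and ENSG00000235152, against 1.87% of the windows of all 38899 lncRNA and coding gene starts. The letters CATTGT, known from SOX factor sites, were present in 6 members (10%), namely MIAT, RMST, HPAT5, XACT, PCCA-DT and ENSG00000248627, against 11.8% of all windows. Neither word was in any of the 9 windows that share letters. A match in this window is a description and not a binding site.

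All 60 members had each of their day 0 and day 4 libraries above each later library, as did 127 of the 1569 lncRNAs past the floor. The ratio used for ranking ran from 68.5 to 1.46, with a median of 2.37. The members just inside were LINC02595, ENSG00000278840, C2CD4D-AS1, ENSG00000268496 and ENSG00000253939, at ratios from 1.48 to 1.46. Just outside were ENSG00000261069 (1.43), SOX21-AS1 (1.40), ENSG00000228613 (1.39), ENSG00000272163 (1.38) and LINC01224 (1.37), so the edge of the set marks no gap. SOX21-AS1 had a mean of 37.6 CPM on days 0 and 4 against 0.670 CPM on the later days.

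The members took 0.403% of all counts on day 0 and 0.377% on day 4, then 0.0460% on day 9, 0.0441% on day 11 and 0.0484% on day 20. Summed CPM fell from 3790 on day 4 to 469 on day 9. The median member kept 6.37% of its day 4 level on day 9, 1.58% on day 11 and 7.27% on day 20, and 1.41% on day 20 without replicate 2. On day 9, 27 members were under 5% of their day 4 level, and on day 11, 37 were. No member kept more than 48.2% on day 9, 49.6% on day 11 or 43.7% on day 20. Counts of 0 in all 3 libraries were seen for 6 members on day 11 (MIR124-1HG, ENSG00000260362, ENSG00000280511, LINC02335, ENSG00000260015 and ENSG00000253939), which allows a level of up to 0.0448 CPM at 3 counts over the day. On day 9 the same was seen for ENSG00000251598 alone, with a limit of 0.0463 CPM. These limits cover counting error only.

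**Figure D3:**
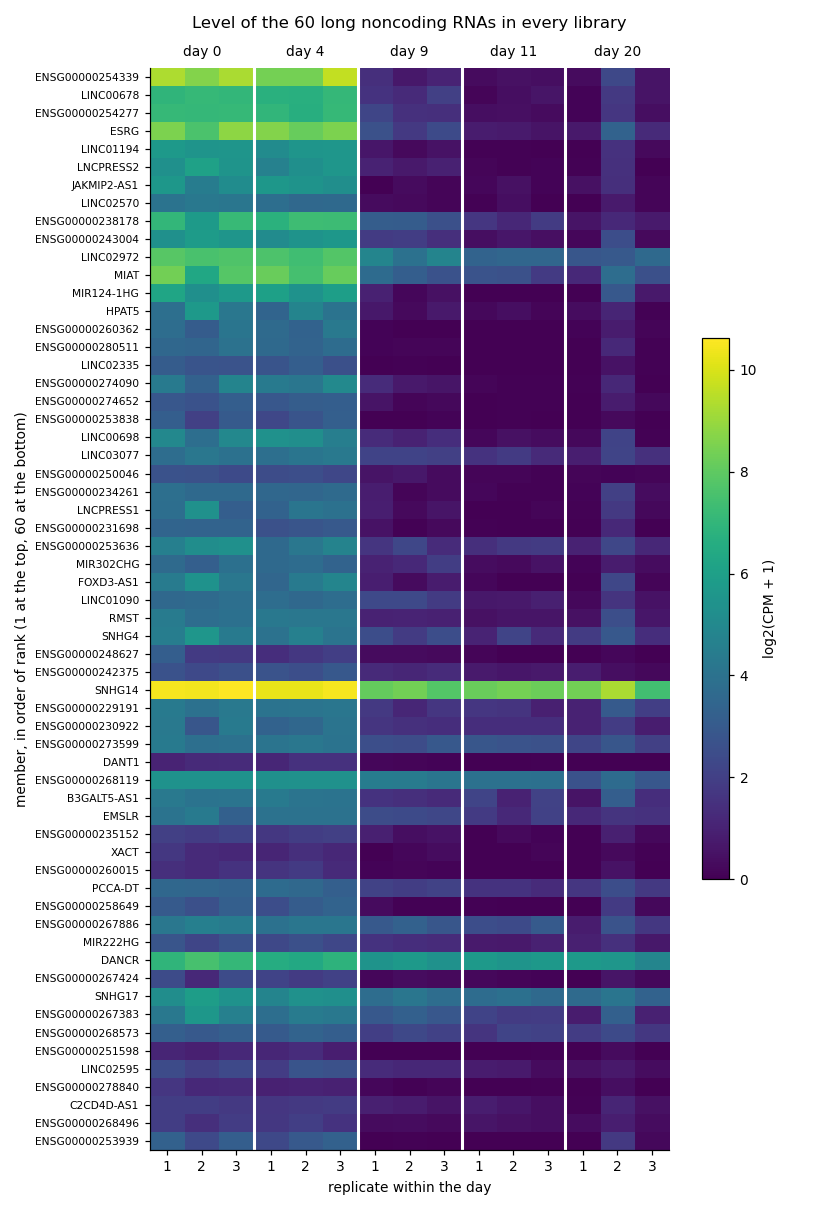
Level of the 60 members (rows, by rank) in the 15 libraries (columns, by day and replicate), coloured by log2(CPM + 1). The 6 columns of days 0 and 4 are the brightest in every row, as the selection requires, and day 20 replicate 2 is brighter than its neighbours in most rows.

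**Figure D4:**
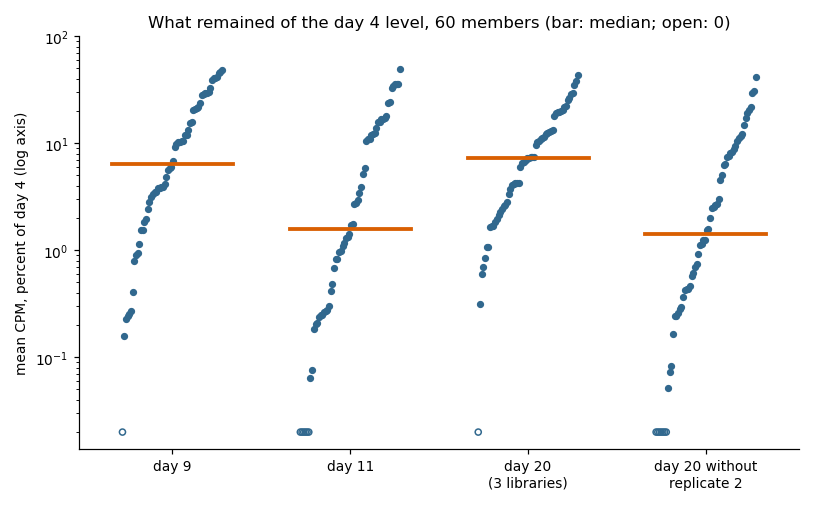
Mean CPM of each member as a percentage of its day 4 mean, on a log axis, for days 9, 11 and 20 and for day 20 without replicate 2; points are members, open points are members at 0 and bars are medians. The medians are 6.37%, 1.58%, 7.27% and 1.41%.

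Several members are hosts of small RNAs. SNHG14, which carries the snoRNAs of the Prader-Willi region and runs antisense to UBE3A at chr15:24978583-25420336, held 35.4% of the members' summed CPM on day 0. It was at 1440.1, 1378 and 1571 CPM on day 0 and 1219.6, 1223 and 1406 CPM on day 4. On day 9 it still had 277, 325 and 219 CPM, and on day 11 291, 341 and 297 CPM. Its share of the sum was 58.4% on day 9 and 70.0% on day 11. In all, 5 members hold annotated snoRNAs (SNHG14 with 84, SNHG17 with 5, SNHG4 with 2, and DANCR and XACT with 1 each). They were 8.33% of the members, against 1.92% of the other lncRNAs past the floor.

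DANCR, named as an antagonist of differentiation, was at 93.1, 84.1 and 116 CPM on day 4 and 43.2, 53.0 and 39.9 CPM on day 9, and it kept 49.6% of its day 4 level on day 11. SNHG17 was at 26.8, 40.2 and 37.5 CPM on day 4 and 12.7, 17.0 and 13.0 CPM on day 9. SNHG4 was at 15, 23.9 and 15.9 CPM on day 4 and 4.67, 2.61 and 4.65 CPM on day 9. These values place DANCR and SNHG17 near the edge of the set (ranks 50 and 52), and both left it when means were compared in place of extremes.

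MicroRNA genes lay inside 5 members (8.33%, against 3.05% of the other lncRNAs past the floor). The sequences of their best-known products are printed because they show the shared seeds; they come from RefSeq on GRCh38.p14, in which 10 of the 11 microRNA genes were matched, and capitals mark the seed, bases 2 to 8. Mature microRNAs themselves were not measured in these libraries.
hsa-miR-302a-3p: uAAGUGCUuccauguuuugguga
hsa-miR-302b-3p: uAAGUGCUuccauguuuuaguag
hsa-miR-302c-3p: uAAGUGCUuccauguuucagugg
hsa-miR-302d-3p: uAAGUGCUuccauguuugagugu
hsa-miR-367-3p: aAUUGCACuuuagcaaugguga
hsa-miR-221-3p: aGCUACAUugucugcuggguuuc
hsa-miR-222-3p: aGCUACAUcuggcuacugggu

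The first 4 share the seed AAGUGCU, miR-367 has AUUGCAC, and miR-221 and miR-222 share GCUACAU. The host of miR-302 and miR-367, MIR302CHG (chr4:112646476-112650051), lies opposite to LARP7. It was at 11.6, 8.28 and 14.1 CPM on day 0, 11.2, 12.6 and 9.53 CPM on day 4 and 1.05, 1.33 and 2.83 CPM on day 9. MIR222HG (chrX:45745210-45770274), the host of miR-221 and miR-222, was at 3.99, 5.03 and 3.85 CPM on day 4 and 1.91, 1.62 and 1.45 CPM on day 9, and its 6.24 TPM over days 0 and 4 was the lowest level per length of the set. The first of these hosts kept 15.6% of its day 4 mean on day 9 and the other 38.7%.

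RMST, a lncRNA known to bind SOX2 in neural cells, hosts miR-1251 and miR-135a-2 and was at 18.1, 17.5 and 17.5 CPM on day 4 and 1.05, 1.09 and 0.981 CPM on day 9. MIR124-1HG, the host of a neuronal microRNA, was at 65.5, 42.1 and 61.8 CPM on day 4, 0.984, 0.143 and 0.400 CPM on day 9 and 0 counts in every day 11 library. DANCR also holds MIR4449.

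Apart from the start-sharing and host transcripts, several members are known from stem cells. LNCPRESS1, which is described as holding SIRT6 away from chromatin, lies 6.92 kb before EMSLR on chromosome 7. LNCPRESS1 was at 13.2, 40.2 and 8.09 CPM on day 0, 9.23, 16.5 and 14.7 CPM on day 4 and 0.861, 0.190 and 0.509 CPM on day 9. EMSLR was at 14.9, 15 and 15.2 CPM on day 4 and 4.55, 4.28 and 3.82 CPM on day 9. Their starts share 182 aligned bases at 95.1% identity, yet the percentages kept on day 9 were 3.86% and 28.1%.

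HPAT5, from a group of transcripts named for pluripotency, was at 13.8, 50.5 and 17.8 CPM on day 0 and 0.615, 0.190 and 0.654 CPM on day 9. XACT, which coats active X chromosomes in human pluripotent cells, was at 2.28, 1.37 and 1.25 CPM on day 0 and 0, 0.143 and 0.291 CPM on day 9. The counts and TPM of XACT imply a gene model of 497 bases. FOXD3-AS1 starts 1874 bases from FOXD3, a factor of pluripotent cells, and was at 10.5, 19.9 and 27.3 CPM on day 4 and 0.861, 0.238 and 0.727 CPM on day 9. MIAT, a nuclear transcript first named in a study of myocardial infarction, was at 293, 178 and 283 CPM on day 4 and 12.1, 7.98 and 5.31 CPM on day 9.

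By TPM, 10 members reached a mean of 100 over days 0 and 4 and 14 stayed under 20, with a median of 42.8. After ENSG00000254339 came ENSG00000254277 (542 TPM), ESRG (408), LINC00678 (397), ENSG00000238178 (383), LINC02972 (332), LNCPRESS2 (266), ENSG00000253838 (221.5), DANCR (201) and SNHG14 (141). Below 100 TPM followed ENSG00000274090 (94.0), LINC01194 (90.1), LNCPRESS1 (87.0), HPAT5 (86.6) and LINC03077 (81.0). The TPM of ENSG00000253838 rests on a gene model of 102 bases and on 3.05 to 8.29 CPM. Neighbours in this order were not tested against each other.

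The 10 members with the highest mean CPM on day 9 held 87.5% of the members' sum of that day. They were SNHG14, DANCR, LINC02972, ENSG00000268119, SNHG17, MIAT, ENSG00000267886, ENSG00000267383, ENSG00000238178 and ENSG00000273599. LINC02972 (chr12:8788253-8795789) was at 199, 162 and 217 CPM on day 4 and 27.2, 14.6 and 26.6 CPM on day 9. ENSG00000268119 kept the most on day 9, 48.2%, with 39.5, 39.8 and 39.9 CPM on day 4 and 20.9, 20.1 and 16.5 CPM on day 9. Its 3 libraries of either day were close together, and the 2 days did not overlap.

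The other members with names were LINC01194, JAKMIP2-AS1, LINC02570, LINC02335, LINC00698, LINC03077, LINC01090, DANT1, B3GALT5-AS1, PCCA-DT, LINC02595 and C2CD4D-AS1. They kept between 0.252% (LINC02335) and 30.2% (C2CD4D-AS1) of the day 4 level on day 9. The other unnamed members were ENSG00000243004, ENSG00000274652, ENSG00000253838, ENSG00000250046, ENSG00000234261, ENSG00000231698, ENSG00000253636, ENSG00000248627, ENSG00000242375, ENSG00000229191, ENSG00000230922, ENSG00000235152, ENSG00000260015, ENSG00000267424, ENSG00000268573, ENSG00000251598, ENSG00000278840, ENSG00000268496 and ENSG00000253939, which kept between 0% (ENSG00000251598) and 40.9% (ENSG00000268573). In all, 30 of the 60 had no name beyond their identifier.

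Many members lay far from coding genes. Of the 60, 31 (51.7%) lay apart from any coding gene, against 337 of the other 1509 (22.3%). The median distance between starts to the nearest coding gene was 51.9 kb for members and 8.56 kb for the others. In 4 members (6.67%) the start lay in a region shared with a coding gene on the opposite strand within 2 kb (FOXD3-AS1 with FOXD3, ENSG00000229191 with KIF21B, PCCA-DT with PCCA and C2CD4D-AS1 with C2CD4D), against 508 of the others (33.7%). A further 17 members (28.3%) overlapped a coding gene on the opposite strand, and 8 (13.3%) overlapped a coding gene on the same strand, among them ENSG00000243004 with MACC1 and ENSG00000253838 with IDO1. Whether counting used the strand is not given in the sources used here, so reads of these overlapping members and of their coding partners may not be separated. These shares are descriptions with no test.

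**Figure D5:**
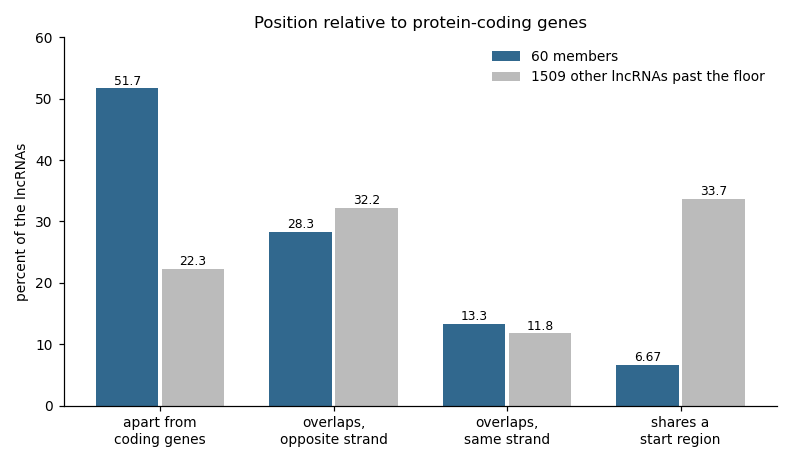
Percentage of the 60 members and of the 1509 other lncRNAs past the floor in each of 4 positions relative to protein-coding genes. Members lie apart from coding genes in 51.7% against 22.3%, and share a start region with a coding gene in 6.67% against 33.7%.

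The members were spread over 22 chromosomes, and 4 pairs lay within 100 kb of each other: ENSG00000253838 with ENSG00000253939, ENSG00000250046 with MIR302CHG, LNCPRESS1 with EMSLR, and MIR222HG with LINC02595. Their gene spans had a median of 14.8 kb, against 6.76 kb for the others. Exon sequence of at least 200 bases at 80% identity was shared with another lncRNA past the floor by 31 members (51.7%) and by 52.7% of the others. Among members alone, 28 shared such exon sequence with another member in 130 pairs, and 6 of the 9 start-sharing members did so in 11 pairs. These exons are those of GENCODE v44, which differ from the models counted. XACT, for example, has 347964 exon bases there, while its counts and TPM imply 497. Some shared stretches may therefore lie outside the counted exons. How reads that map to several places were counted is not given in the sources used here. The counts of these members are uncertain where shared sequence was counted, and how far was not tested.

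Whether the set still moved inside the stem cell days was asked with day 4 against day 0, a contrast the ranking did not use, although its demand for high values on both days limits how far a member could fall. ENSG00000231698, ENSG00000253636, LINC02570, DANCR and ENSG00000278840 had the smallest p-values, all lower on day 4. ENSG00000231698 was at 9.78, 9.56 and 9.42 CPM on day 0 and 5.15, 6.03 and 6.92 CPM on day 4, without overlap, with a log2 fold change of −0.66. DANCR was at 122, 182 and 133 CPM on day 0 and 93.1, 84.1 and 116 CPM on day 4 (log2 fold change −0.57), also without overlap. No member passed an adjusted p of 0.05 in edgeR's quasi-likelihood test with Benjamini-Hochberg adjustment, nor did any of the 20964 genes tested (0%). At an unadjusted p under 0.05, 5 of the 60 members were lower and none higher, against 3.53% of all genes, and their adjusted p was 0.885 throughout. DESeq2 passed 0 members at its adjusted threshold and 7 unadjusted. Its unadjusted share over all genes is not reported here, so nothing was read from the 7. The median log2 fold change of the members was −0.08, and that of all genes was −0.01.

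Between day 9 and day 11, the stage the study calls committed cardiac progenitors, 9 of the 34 members tested fell further in edgeR, where 1.00% of 20679 genes were lower. This count went to 0 when any of 3 single libraries was left out, as did most calls over all genes. The ranking capped both days but did not compare them. The 9 were LNCPRESS2, ENSG00000243004, ENSG00000254277, ESRG, LINC01090, ENSG00000274090, ENSG00000267383, LINC00698 and ENSG00000238178, and 4 of them are start-sharing members. Only 4 of the 9 were among the 23 members that passed the count filter on day 11 counts alone. LNCPRESS2, ENSG00000243004, ENSG00000254277, ENSG00000274090 and LINC00698 passed it only through day 9, the day on which they were higher. On day 11, LNCPRESS2 had 2, 1 and 2 counts and ENSG00000274090 had 2, 1 and 1. LNCPRESS2 went from 1.05, 0.665 and 0.945 CPM to 0.0906, 0.0498 and 0.0808 CPM, a log2 fold change of −3.43 (SE 0.48, edgeR adjusted p 0.0204). ENSG00000274090 went from 1.48, 0.665 and 0.509 CPM to 0.0906, 0.0498 and 0.0404 CPM (−3.67, SE 0.65, edgeR adjusted p 0.0361). Over the same 2 days the summed TPM of the 8 stem cell markers went from between 1913 and 2375 to between 949 and 1355. LIN28A made up most of both sums. POU5F1 went from between 61.4 and 115 TPM to between 7.69 and 11.5 TPM. ZFP42 went from between 113 and 160 TPM to between 40.5 and 61.3 TPM. The part of these changes in the members' values was not tested.

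ESRG fell by 2.57 on the log2 scale (SE 0.39, edgeR adjusted p 0.0232), from at least 2.38 CPM in every day 9 library to at most 0.770 CPM in every day 11 library. ENSG00000254277 went from 3.63, 1.76 and 1.71 CPM to 0.317, 0.349 and 0.243 CPM (−2.89, SE 0.43, edgeR adjusted p 0.0227). ENSG00000243004, which overlaps MACC1 on the same strand, went from 2.64, 2.76 and 1.71 CPM to 0.317, 0.548 and 0.364 CPM (−2.47, SE 0.36, edgeR adjusted p 0.0217). LINC01090, opposite to GULP1, went from 4.06, 4.09 and 2.54 CPM to 0.589, 0.648 and 0.930 CPM (−2.23, SE 0.35, edgeR adjusted p 0.0246). In each of these the days did not overlap. ENSG00000238178, LINC00698 and ENSG00000267383 had log2 fold changes of −1.69, −2.30 and −1.27, with edgeR adjusted p from 0.0448 to 0.0488.

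The members that missed the threshold included LINC00678 (−2.70, edgeR adjusted p 0.0648), MIR302CHG (−2.46, 0.0662), LINC02972 (−1.15, 0.0738) and ENSG00000254339 (−1.74, 0.115). Positive values were seen for B3GALT5-AS1 (0.72), SNHG14 (0.22), DANCR (0.14) and ENSG00000273599 (0.09), and none passed the test. The largest day 11 library of SNHG14, 341 CPM, lay just above its largest day 9 library, 325 CPM.

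Only 34 members passed the count filter for this contrast, 23 of them on the day 11 counts alone, of which 4 were among the 9. Without the filter all 60 could be tested: 16 were lower and none higher, where 1.05% of 44235 genes were lower, and the median log2 fold change was −1.47 with 53 members negative and 7 positive. The 7 members added were FOXD3-AS1 (−3.56), LINC01194 (−3.43), LNCPRESS1 (−3.32), MIR124-1HG, MIR302CHG, LINC00678 and LINC02972. Libraries of the 2 days did not overlap for 34 members that were lower on day 11, where 8.80% of genes were, and for 1 that was higher, ENSG00000268496, where 6.73% of genes were higher.

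The count of 9 depends on single libraries and on the fit. A fit over all 15 libraries called 5 members, where 0.452% of 24767 genes were lower, and limma on log2(TPM + 1) called 3 (182 genes in all). With the sequencing lane as a block, an alternative chosen after seeing the data, edgeR called 6, all among the 9 (698 genes in all). The reported fit called 495 genes in either direction. Without day 9 replicate 1, without day 9 replicate 3 or without day 11 replicate 1, edgeR called 0 members (16, 20 and 20 at an unadjusted p under 0.05), and over all genes it called 0, 37 and 133. Without day 11 replicate 2 it called 4 members and 411 genes, and without day 11 replicate 3 it called 1 member and 288 genes. No log2 fold change of the 9 changed sign in any alternative.

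From day 11 to day 20 no member passed the adjusted threshold in edgeR, where 1.53% of 21398 genes did. At an unadjusted p under 0.05, 3 of the 27 members tested differed, where 16.6% of all genes did: ENSG00000268119 (log2 fold change −0.94, edgeR adjusted p 0.168), ESRG (2.27, 0.241) and ENSG00000238178 (−1.37, 0.272). ENSG00000268119 was at 14.5, 14.4 and 14.1 CPM on day 11 and 5.32, 12.2 and 6.42 CPM on day 20, without overlap, and DESeq2 called it alone among members (−1.10; 2045 of 26912 genes in all). Without day 20 replicate 2, edgeR again called 0 members (4 at an unadjusted p under 0.05), and the median log2 fold change of the 27 went from −0.05 to −0.35. ENSG00000238178 was at 2.22, 1.30 and 2.55 CPM on day 11 and 0.484, 1.34 and 0.707 CPM on day 20, where replicate 2 overlapped day 11.

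For most members replicate 2 stood out on day 20. It was the highest of the day 20 libraries for 55 of the 60 and the highest of all later libraries for 38. The median member had 25.4 reads per kilobase in it, against 2.86 and 5.27 in replicates 1 and 3. Over 890 lncRNAs with 0 counts on all days up to day 11, the median was 17.1 reads per kilobase in replicate 2, against 0 and 0.288. The mean CPM was lower on day 20 than on day 11 for 14 members with this library and for 41 without it. With all 15 libraries in one fit, edgeR called 3132 genes in place of 327, and 8.39% of 24767 genes were higher on day 20 and 4.26% lower. Among them were 10 members, 8 higher (ESRG, LINC01194, ENSG00000234261, ENSG00000280511, MIR124-1HG, ENSG00000253939, ENSG00000258649 and ENSG00000260362) and 2 lower (ENSG00000238178 and ENSG00000268119). For MIR124-1HG the day 20 libraries held 0, 6.51 and 0.653 CPM, and for ESRG 0.670, 9.25 and 1.41 CPM. The part of this library's low RNA integrity in these values was not tested.

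Genes that were not chosen by this ranking are set beside the day 4 to day 9 step. The pluripotency list was picked for its tie to the stem cell state, with earlier results of these data known. Its fall is therefore a description and no independent support. Of 30 coding genes written about in pluripotency, 26 were lower on day 9 and none higher (without day 9 replicate 3, 22 were lower and 1 higher), where edgeR called 24.7% of 21252 genes lower and 24.3% higher, and the list's median log2 fold change was −3.04. POU5F1 had a log2 fold change of −3.76 (SE 0.29), NANOG −4.72 (SE 0.33), SOX2 −5.86 (SE 0.63) and PRDM14, a repressor of differentiation genes, −6.37 (SE 0.19). DNMT3B, the DNA methyltransferase of early embryonic cells, had −3.64 (SE 0.19). LIN28B, OTX2, NODAL and GDF3 did not pass the test. On day 11, 9 of its 26 tested genes were lower than on day 9 (1.00% of all genes were) and 17 did not pass the test. On day 20, 4 of 24 were lower than on day 11 (0.407% of all genes were) and 20 did not pass.

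Among 20 lncRNAs that most cell types express, none of which was a member, 8 were higher on day 9 than on day 4 and 3 were lower. MALAT1 rose by 1.06 and NEAT1, the scaffold of paraspeckles, by 1.47 on the log2 scale. JPX, a gene of the X inactivation centre, fell by 1.36, and OIP5-AS1 and TUG1 also fell. The directions were the same under each scaling. With all 15 libraries in one fit, 2 of the list were higher and 2 lower.

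Of the coding genes that members overlap or lie nearest to, 54 were in the table and 50 could be tested. On day 9, 30 of them were lower than on day 4 and 6 higher, to be set beside the 24.7% and 24.3% of all genes; with all 15 libraries in one fit, 24 were lower and 3 higher. Lower were IDO1 (log2 fold change −8.97), GRPR (−4.66), FOXD3 (−4.16), TERF1 (−3.96), KIF21B (−2.27) and LARP7 (−1.71). IDO1, which breaks down tryptophan, is overlapped by ENSG00000253838 on the same strand and by ENSG00000253939 on the opposite strand. GRPR and LARP7 are overlapped on the opposite strand by ENSG00000238178 and MIR302CHG. FOXD3 lies at FOXD3-AS1, and TERF1, a telomere protein gene, is nearest to ENSG00000253636. FOXD3 and TERF1 also belong to the pluripotency list above. Higher were SIPA1L2 (3.27), PCDH10 (2.77) and CSMD3 (3.00), which overlap no member. They are nearest to ENSG00000235152, ENSG00000251598 and ENSG00000254339, with starts 470480, 803673 and 845098 bases away. UBE3A, opposite to SNHG14, had a log2 fold change of −0.04 (edgeR adjusted p 0.748). Where a member overlaps its neighbour on the opposite strand, the measured values share any reads that the counting did not separate by strand. On the same strand, as with ENSG00000253838 and IDO1, strand cannot separate the reads.

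The other lncRNAs written about in pluripotent cells stood outside the set as it was ranked. LINC01108 ranked 128, but 43 without day 20 replicate 2 and 27 by means, which would place it inside. LINC-PINT ranked 1126, without that library 603 and by means 448, and LINC01405 ranked 1513. LINC00545 was below the floor. TUNAR is classed as protein-coding in GENCODE v44 and was not eligible, and GSC-DT was not matched.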

How the data were processed

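RNA libraries were made with a stranded total RNA kit, and paired-end reads were sequenced from 15 samples on 5 days. The authors aligned the reads with STAR 2.5.2b to hg38 with Ensembl release 79 gene models, counted them per gene with featureCounts 1.5.1, removed ribosomal and mitochondrial genes and deposited raw counts. The authors also deposited TPM, and a sample table with the RNA integrity number as a score and the uniquely mapped fraction of reads. The strand setting and the treatment of reads that map to several places are not given in the sources used here.

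The day of each sample was taken from its label; the methods list day 7 in place of day 9. Members and gene lists were chosen with earlier results of these data known. Classes, places and start windows came from GENCODE v44, which holds 46872 of the listed genes, so gene models differ from those counted: the length implied by counts and TPM was within 10% of GENCODE v44 for 28 of the 60 members and for 77.9% of 17756 coding genes. Alignments used BLAST 2.17.0 and Biopython 1.88.

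Each comparison was a two-sided, robust quasi-likelihood test in edgeR 4.0.16 (R 4.3.3) on the 6 libraries of its 2 days, after TMM scaling and filterByExpr (at least 10 counts per gene, 15 in total). P-values were adjusted by Benjamini-Hochberg across every gene tested, and 0.05 was the threshold. Standard errors were derived from the F statistic. Depth and the spread between replicates set these errors. Alternatives were DESeq2 1.42.0, its size factors or the library total alone in edgeR, no filter or a mean of at least 1 CPM, all 15 libraries in one fit, limma 3.58.1 on log2(TPM + 1), the plate number or the sequencing lane as a block (the lane was added after seeing the data), and each replicate left out. In simulated data for day 4 against day 0, with 200 of 20451 genes changed, edgeR recovered 171, with 10% false among 190 calls. Each planted change was 2 on the log2 scale, up or down. Smaller changes, such as those of the members between these days, were not simulated, so their recovery is not known.

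Named genes were the 15 members with the highest TPM, lncRNAs written about in pluripotent cells, called members, the 10 members highest on day 9, 5 ranks on either side of the edge, and members with a host, start or neighbour relation. The remaining members are named in groups. The letters of the start windows and some neighbouring genes are not reported here.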

Additional observations from a re-analysis of the deposited data

How the results depend on the processing

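Day 4 against day 0 kept 0 called members in edgeR except without the filter on low counts, which called 1 (ENSG00000253636, log2 fold change −0.85). The share over all genes in that fit is not reported here, so nothing was read from this call. Day 11 against day 9, with 9 called members, gave 16 without the filter (1016 of all genes in place of 495), 5 with all 15 libraries in one fit, of which 3 were among the 9, and 3 with limma on log2(TPM + 1). Leaving out each replicate in turn gave between 0 and 7, with between 0 and 572 of all genes. Day 20 against day 11, with 0 called in edgeR, gave 1 with DESeq2 (2045 genes in place of 327) and 10 with all 15 libraries in one fit (3132 genes). The cause of these moves was not tested. The pluripotency list for day 9 against day 4, with 26 called genes, gave between 22 and 24 when each replicate was left out. Libraries of different days shared plate numbers in their labels and lane numbers in the sample table. Day 20 replicates 1 and 2 also carry the same plate number, 2, and whether they came from 1 plate is not given. Libraries with the same plate number had deviations that correlated at 0.18 and 0.40 between days 9 and 11. Between days 11 and 20 the values were −0.16, −0.06 and 0.39. So few pairs cannot show whether the plates were paired, and the main fits used no pairing. With the plate number as a replicate block, 10 members were called for day 11 against day 9 (1973 genes in place of 495) and 0 for day 20 against day 11 (0 genes in place of 327). Days 4, 9, 11 and 20 each had 1 library in lanes 1, 2 and 5, and deviations within a lane correlated at between −0.48 and 0.40. The value of 0.40 is from day 9 replicate 2 with day 11 replicate 3, which share both plate 6 and lane 2. With the lane as a block, chosen after seeing the data, 6 members were called for day 11 against day 9, 0 for day 20 against day 11 (119 genes) and 26 of the pluripotency list for day 9 against day 4. Of 606 alternatives for 43 results, each a named gene in 1 contrast, 514 stayed on the same side of the threshold. A further 87 fell short of it and 5 newly passed it, and none of the 606 changed direction. For the 9 members called for day 11 against day 9, 74 of 132 alternatives stayed past the threshold. The other 58 were lower but fell short of it. For the selection itself, 52 of the 60 members stayed with TMM scaling, 54 with TPM, 55 with a pseudocount of 0.1, 41 with means, 42 without day 20 replicate 2 and 47 with a floor of 5 CPM; 35 stayed in all of them.

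Depth limits the low end: 0 counts in all 3 libraries of day 11 allow a level of up to 0.0448 CPM at 3 counts over the day, so members below it are not resolved. Gene models differ between counting and annotation.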
